A study of Mus musculus with 12 samples.

Results

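The comparison described here is that of Cnot6l-/- mouse oocytes with wild-type oocytes at metaphase of the second meiotic division (MII), the stage at which a mature egg waits for sperm. What was measured is polysome-bound RNA, that is, messages loaded with ribosomes, by sequencing. The members are the 11667 genes, of 23235 in the deposited table, whose mean over the 12 libraries of the series was at least 1 FPKM (fragment counts scaled to transcript length and library size), compared between 4 libraries. Where 2 values of a group are given, they are those of its libraries 1 and 2. The knockout MII group was 2 libraries of Cnot6l-/- oocytes cultured for 16 h, and the wild-type MII group was 2 libraries of oocytes cultured in the same way. All oocytes came from females on a C57BL/6 background at postnatal day 21. The other 8 libraries were 2 per genotype of germinal vesicle oocytes (GV, the immature stage, 48 h after gonadotropin) and of oocytes at the first meiotic metaphase (MI, 8 h of culture), and they entered the fits that share 1 estimate of the spread. The labels give neither how the null allele was made nor how many oocytes or females went into a library, and they do not say that the 2 libraries of a group came from separate pools, so p-values measure the spread between these libraries, which may be technical.

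A fully grown oocyte is transcriptionally silent and lives on stored maternal mRNA. When it resumes meiosis, many of these mRNAs lose their poly(A) tails and are removed, while others, held back until then, gain a tail and are translated. CNOT6L is one of the catalytic deadenylase subunits of the CCR4-NOT complex, which shortens poly(A) tails; BTG4 is an adaptor that brings the complex to maternal mRNAs, and cytoplasmic polyadenylation elements (CPEs) in 3' UTRs, bound by CPEB1, mark many of the messages that gain tails. The comparison at MII asks which messages were on polysomes at the end of maturation when CNOT6L was absent.

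The deposited FPKM of a library summed to 1211628 and 1213953 in the knockout MII libraries, against 889989 and 884142 in the wild-type MII libraries, and 10780 and 10686 of the 11667 genes were above 0 in the knockout libraries, against 8608 and 8567 in the wild-type libraries. Read depth is unknown, since the files give FPKM only. Because the libraries differ in these totals, each result was also computed after median scaling, in which each library is divided by the median, over genes with a mean of at least 10 FPKM, of its ratio to the gene's mean; the factors were 0.977 and 0.972 for the knockout MII libraries and 0.560 and 0.582 for the wild-type MII libraries. All 19 oocyte markers were above 0 in all 4 libraries and summed to 123667 and 125892 FPKM in the knockout libraries, against 60016 and 58549 FPKM in the wild-type libraries. The 30 cumulus and granulosa markers summed to 911 and 899 FPKM in the knockout libraries, against 1095 and 1033 FPKM in the wild-type libraries, most of it Serpine2, and 14 of them, among them Foxl2, Has2, Lhcgr and Star, were listed at 0 in all 4. The 26 markers of theca, stroma, endothelium and blood summed to 59.7 and 92.3 FPKM in knockout, against 67.5 and 78.6 FPKM in wild type, with 11 at 0 in all 4. The part of other cells in the results was not tested.

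Cnot6l itself (chr5:96505816-96591009, minus strand in mm9) was present at 16.4 and 16.0 FPKM in knockout, against 65.2 and 49.4 FPKM in wild type. Both knockout libraries were below both wild-type libraries, and the log2(FPKM + 1) difference, knockout minus wild type, was -1.75 ± 0.57 SE, adjusted p = 0.043, in limma with Benjamini-Hochberg adjustment. Differences in brackets below are the same quantity with its SE, knockout minus wild type in log2(FPKM + 1), with the adjusted p of the same fit. The call was narrow: without either MII library of either genotype the adjusted p was between 0.069 and 0.14, with a left-out MI library it was between 0.052 and 0.062, and with a pseudocount of 0.1 and with no filter on low values it was 0.053 and 0.069. Median scaling gave -2.51, adjusted p = 0.010. FPKM over a whole gene does not show which exons the remaining reads came from, and the labels do not give the deleted part.

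Of the 11667 genes, 2967 (25.4%) were higher in knockout MII oocytes and 373 (3.20%) were lower, at an adjusted p under 0.05. The median log2 difference over all genes was 0.81. After median scaling 1676 genes (14.4%) were higher and 1223 (10.5%) were lower, around a median of 0.29, so the scaling moved the median by 0.53 and the share of calls that were higher to 57.8%, against 88.8% as deposited. The 2 scalings shared 1664 higher and 373 lower genes; 1285 genes called higher as deposited were not called after scaling, 18 were called lower, and 832 became lower calls. In 5703 genes (48.9%) both knockout libraries were above both wild-type libraries, and in 1235 (10.6%) both were below. In bulk RNA of this kind, fewer oocytes in a pool and less RNA per oocyte cannot be told apart, and no external standard was used here, so counts are given under both scalings. Single genes given with their FPKM below and called higher or lower had the same call after median scaling unless the text gives another. This does not hold for genes named only as members of a higher count, many of which were not called after scaling. The numbers rested on the knockout MII libraries: without knockout library 1 there were 1884 higher and 241 lower genes as deposited, and without knockout library 2 there were 1891 and 216. After median scaling, leaving out knockout library 1 gave 967 higher and 754 lower genes, and leaving out library 2 gave 979 and 731. A fit of the 4 MII libraries alone, which has less to estimate the spread from, called 1365 genes higher and 172 lower as deposited.

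**Figure D1:**
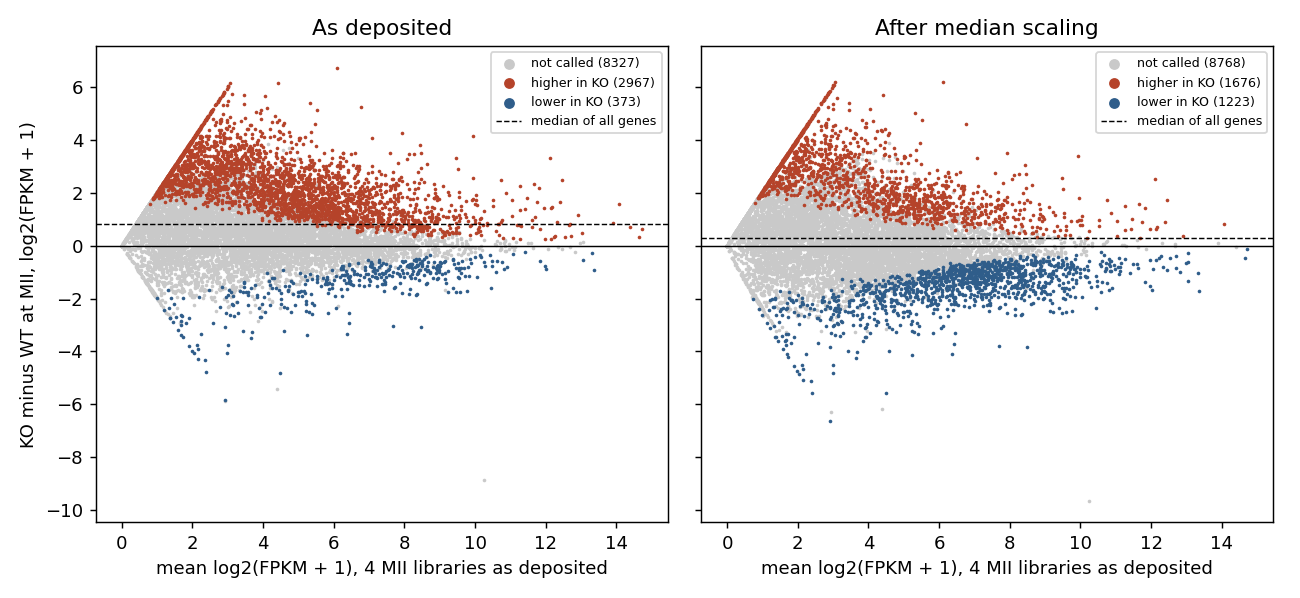
Each point is 1 of 11667 genes; the x axis is its mean log2(FPKM + 1) over the 4 MII libraries and the y axis its knockout minus wild-type log2 difference, as deposited (left) and after median scaling (right). Red genes (2967 and 1676) were called higher in knockout, blue genes (373 and 1223) lower, and the dashed line is the median of all genes, 0.81 and 0.29; the straight upper edge on the left of each panel is genes listed at 0 in wild type.

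The share of genes called grew with abundance at GV. Among the 2749 genes below 5 FPKM at GV, 5.82% were higher in knockout MII oocytes and 0.946% lower, and among the 436 genes at 500 FPKM or more, 65.1% were higher and 10.1% lower. After median scaling the most abundant band was split between 37.8% higher and 32.8% lower. Over 5 bands from low to high abundance, the median absolute log2 difference between the replicates of a group was 0.710, 0.558, 0.363, 0.211 and 0.103 in knockout and 0.322, 0.676, 0.620, 0.433 and 0.194 in wild type. The spread thus fell from band to band in knockout, while in wild type it was smaller than in the lowest band only in the highest. In the lowest band 1115 genes were at 0 in both wild-type libraries.

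The 15 genes with the largest higher calls included Rps27, Atpbd4, Nck1 and Fen1, which were above 0 in both genotypes. Rps27, a component of the small ribosomal subunit, had 673 and 742 FPKM in knockout, against 0.650 and 26.1 FPKM in wild type. The difference was 6.73 ± 0.97 SE, adjusted p = 0.00056, with the 2 wild-type libraries far apart. In the fit of the 4 MII libraries alone Rps27 was not called (adjusted p = 0.092), and ribosomal protein genes have many near-identical pseudogene copies that can share its reads. Atpbd4, now known as the diphthamide synthase gene Dph6, had 168 and 188 FPKM in knockout, against 3.65 and 0.390 FPKM in wild type (6.14 ± 0.49 SE, adjusted p = 1.0e-05). For Fen1, the flap endonuclease that trims Okazaki fragments, the values were 96.5 and 140.2 FPKM in knockout, against 1.38 and 1.34 FPKM in wild type (5.64 ± 0.41 SE, adjusted p = 5.2e-06). Both knockout libraries exceeded both wild-type libraries in each of these genes. The adaptor Nck1, which links receptor tyrosine kinases to actin, showed 63.9 and 60.1 FPKM in knockout, against 0.450 and 0 FPKM in wild type (5.71 ± 0.36 SE, adjusted p = 2.1e-06).

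Many genes on polysomes in knockout MII oocytes were listed at 0 in wild type. There were 2001 genes at 0 in both wild-type MII libraries, against 420 in both knockout MII libraries, with 293 in all 4; 1141 genes were at 0 in both wild-type libraries and above 0 in both knockout libraries, and 22 the other way round. Of the genes at 0 in both wild-type MII libraries, 198 had averaged at least 20 FPKM in wild-type GV oocytes. Examples are Mrpl55, a mitochondrial ribosomal protein, at 55.7 and 73.6 FPKM in the knockout libraries (adjusted p = 8.1e-07), and Atp5d, a subunit of the mitochondrial ATP synthase, at 61.9 and 63.6 FPKM (adjusted p = 3.7e-05), both listed at 0 in both wild-type libraries. Likewise listed at 0 in wild type were Noa1, a mitochondrial GTPase, with 64.5 and 56.0 FPKM in knockout (adjusted p = 3.1e-05), and Itpa, which clears inosine triphosphate, with 42.8 and 70.1 FPKM (adjusted p = 3.6e-05). Dscc1, a loader of the replication clamp, had 41.8 and 46.7 FPKM in knockout and 0 in wild type (adjusted p = 8.0e-07). An FPKM of 0 does not show that the RNA was absent, and no fold change is given for these genes. Zeros moved with the group, and the part of detection in these counts was not tested: 105 genes were at 0 in 1 wild-type MII library and above 20 FPKM in the other, against 13 in the knockout libraries.

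Fewer genes were lower in knockout, and the 15 with the largest lower calls included Nupr1, Bcat2, Dcpp1, Agbl2, Ehmt2 and Spp1. Bcat2 (chr7:52825523-52845080, plus strand), the mitochondrial branched-chain aminotransferase, had 1.60 and 5.98 FPKM in knockout, against 106 and 131 FPKM in wild type (-4.80 ± 0.45 SE, adjusted p = 3.4e-05). Spp1, which encodes the secreted phosphoprotein osteopontin, had 9.92 and 11.6 FPKM in knockout, against 129 and 111 FPKM in wild type (-3.36 ± 0.45 SE, adjusted p = 0.00036). Wild type was above knockout in every library of both. Nupr1, a stress-induced nuclear protein, was listed at 0 in both knockout libraries and had 47.0 and 65.2 FPKM in the wild-type libraries (adjusted p = 1.5e-05). The same pattern held for Dcpp1, with 24.5 and 28.9 FPKM in wild type (adjusted p = 8.3e-05), and for Agbl2, a tubulin deglutamylase, with 18.1 and 18.9 FPKM in wild type (adjusted p = 0.00041). Ehmt2, the G9a histone H3 lysine 9 methyltransferase, was at 0 in knockout and at 11.46 and 8.58 FPKM in wild type (adjusted p = 0.0033). Hormad1 and Cdc5l were also among these 15. Hormad1, of the meiotic chromosome axis, had 0 and 1.22 FPKM in knockout, against 13.3 and 15 FPKM in wild type (adjusted p = 0.0016). Cdc5l, a core splicing factor, had 0 and 0.420 FPKM in knockout, against 10.3 and 21.8 FPKM in wild type (adjusted p = 0.0013). Neither was called in the fit of the 4 MII libraries alone (adjusted p = 0.066 for Hormad1 and 0.053 for Cdc5l).

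**Figure D2:**
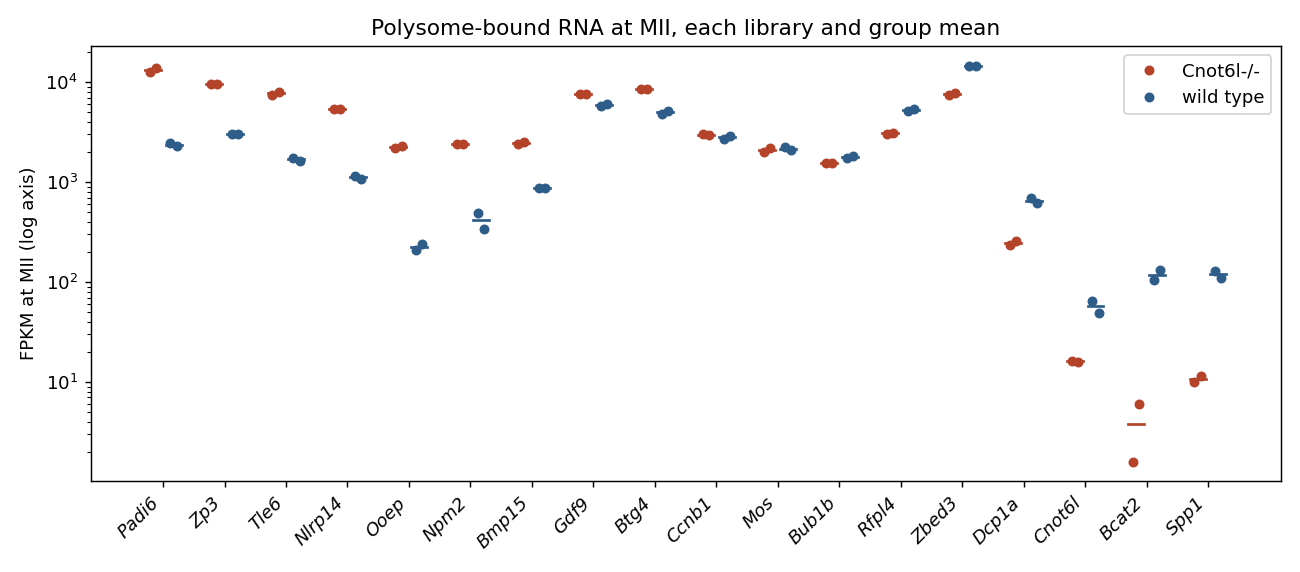
FPKM at MII on a log axis for 18 genes named in the text, with 1 point per library and a bar at the group mean, Cnot6l-/- in red left of wild type in blue. Knockout libraries lie above wild type from Padi6 to Btg4, lie within 1 log2 unit of wild type for Ccnb1, Mos and Bub1b, and lie below it from Rfpl4 to Spp1.

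Catalytic deadenylases were not among the higher calls. In limma 0 of 8 tested were higher, beside 25.4% of all genes, and 1 was higher at an unadjusted p under 0.05. The 2 lower (25%, against 3.20% of all genes) were Cnot6l, the targeted gene, and Ccrn4l. The list had a median difference of -0.07 against 0.81 over all genes. Cnot7, the other class of catalytic subunit in CCR4-NOT, had 412 and 445 FPKM in knockout, against 484 and 608 FPKM in wild type (-0.34 ± 0.14 SE, adjusted p = 0.10). Its paralogue Cnot8 had 488 and 499 FPKM in knockout, against 392 and 471 FPKM in wild type (0.20 ± 0.16 SE, adjusted p = 0.40). Neither passed as deposited, and both were lower after median scaling (-1.11, adjusted p = 0.00030 for Cnot7 and -0.57, adjusted p = 0.022 for Cnot8). Cnot6, the closest paralogue of Cnot6l, was scarce and variable, at 5.77 and 11 FPKM in knockout, against 0 and 10.8 FPKM in wild type (adjusted p = 0.43). Ccrn4l, the circadian deadenylase nocturnin, had 210.1 and 117 FPKM in knockout, against 326 and 333 FPKM in wild type (-1.07 ± 0.28 SE, adjusted p = 0.016). Its call was lost without knockout library 2 (adjusted p = 0.13) and in the fit of the 4 MII libraries alone (adjusted p = 0.15). After median scaling 5 of the 8 were lower (62.5%, against 10.5% of all genes) and 0 higher (against 14.4%). The median of the list was then -0.84 against 0.29 over all genes.

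Among 20 tested non-catalytic subunits and adaptors 6 were higher (30%, against 25.4% of all genes; Cnot1, Cnot10, Rqcd1, Btg2, Btg4 and Tob2) and 0 lower, as at an unadjusted p under 0.05, and after median scaling 2 were higher and 1 lower. Without knockout library 1 and library 2 the higher counts were 4 and 3. With the 4 MII libraries alone the count was 1. Btg4 had 8494 and 8474 FPKM in knockout, against 4836 and 5113 FPKM in wild type (0.77 ± 0.05 SE, adjusted p = 1.2e-06), and after median scaling its difference was -0.001. Tob2, an antiproliferative adaptor of the complex, had 71.5 and 82.2 FPKM in knockout, against 15 and 4.19 FPKM in wild type (3.09 ± 0.49 SE, adjusted p = 0.0010), with adjusted p = 0.082 in the fit of the 4 MII libraries alone. Zfp36l2, which recruits CCR4-NOT to AU-rich messages, was near 0, at 4.32 and 0.190 FPKM in knockout, against 0 and 0 FPKM in wild type (adjusted p = 0.31).

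For downstream steps of mRNA decay the share of higher genes was close to the 25.4% of all genes as deposited. Of 19 tested decapping and uridylation genes 5 were higher (26.3%; Lsm5, Lsm6, Patl2, Ddx6 and Eif4enif1) and 2 lower, and after median scaling 2 were higher and 7 lower (36.8%, against 10.5% of all genes). Dcp1a, a cofactor of the decapping enzyme, was lower under both scalings, at 232 and 258 FPKM in knockout, against 693 and 615 FPKM in wild type (-1.41 ± 0.18 SE, adjusted p = 0.00024). The other lower gene, Lsm7 of the ring that binds shortened tails, had 358 and 405 FPKM in knockout, against 772 and 565 FPKM in wild type (-0.79 ± 0.18 SE, adjusted p = 0.0084), and its call was lost without knockout library 1 (adjusted p = 0.064) and in the fit of the 4 MII libraries alone (adjusted p = 0.10). In contrast Patl2, an oocyte-expressed relative of the decapping activator Pat1, had 106 and 123.1 FPKM in knockout, against 27.5 and 39.2 FPKM in wild type (1.76 ± 0.25 SE, adjusted p = 0.00050). The 15 tested exosome genes held 4 higher (26.7%; Exosc3, Exosc7, Exosc9 and Skiv2l2) and 1 lower (1 and 2 after median scaling). The lower one, Exosc2, had 47.1 and 60.1 FPKM in knockout, against 153 and 141 FPKM in wild type (-1.45 ± 0.24 SE, adjusted p = 0.0014), whereas Exosc9, another subunit of the core, had 61.7 and 56.6 FPKM in knockout, against 0 and 5.48 FPKM in wild type (4.56 ± 0.74 SE, adjusted p = 0.0012), with adjusted p = 0.098 in the fit of the 4 MII libraries alone. Without knockout library 1 and library 2 the higher calls were 3 and 2 for decapping and 1 and 2 for the exosome.

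Among 28 genes of cytoplasmic polyadenylation, poly(A) binding and mRNA storage 11 were higher and 2 lower (6 and 5 after median scaling), with 7 and 7 higher without knockout library 1 and library 2. There were 5 higher in the fit of the 4 MII libraries alone. The shares as deposited were 39.3% higher and 7.14% lower, against 25.4% and 3.20% of all genes. Pabpn1l, a poly(A)-binding protein of the oocyte, had 3794 and 3647 FPKM in knockout, against 979.6 and 896 FPKM in wild type (1.99 ± 0.09 SE, adjusted p = 1.4e-07). Paip2, an inhibitor of poly(A)-binding protein, had 512 and 458 FPKM in knockout, against 68.9 and 102 FPKM in wild type (2.52 ± 0.18 SE, adjusted p = 4.9e-06). Cpeb1, the CPE-binding protein, had 934 and 989 FPKM in knockout, against 359 and 409.8 FPKM in wild type (1.32 ± 0.10 SE, adjusted p = 5.9e-06). All 3 were higher under both scalings. The 2 lower genes were the related RNA granule proteins Lsm14a and Lsm14b: Lsm14b had 26.8 and 44.0 FPKM in knockout, against 99.7 and 116 FPKM in wild type (-1.62 ± 0.33 SE, adjusted p = 0.0044), and Lsm14a had 112 and 85.6 FPKM in knockout, against 253 and 295 FPKM in wild type (-1.47 ± 0.34 SE, adjusted p = 0.0086). Lsm14a was not called without knockout library 2 (adjusted p = 0.069), nor Lsm14b in the fit of the 4 MII libraries alone (adjusted p = 0.068).

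Many messages of the growing oocyte were higher in knockout. Of 34 tested oocyte growth factor, transcription factor and oocyte-restricted genes 19 were higher (55.9%, against 25.4% of all genes) and 1 lower as deposited (13 and 6 after median scaling). For 15 tested genes of the subcortical maternal complex and the Nlrp family the counts were 10 higher (66.7%) and 1 lower (7 and 3 after median scaling). After median scaling the higher shares of the 2 lists were 38.2% and 46.7%, against 14.4% of all genes. The lower shares were 17.6% and 20%, against 10.5% of all genes. Neither list was matched to all genes by abundance at GV. Of all genes at 500 FPKM or more at GV, 65.1% were higher as deposited, and 37.8% were higher and 32.8% lower after median scaling. Padi6 (chr4:140283270-140298558, minus strand), a component of the oocyte's cytoplasmic lattices, had 12708 and 13789 FPKM in knockout, against 2437 and 2295 FPKM in wild type (2.48 ± 0.04 SE, adjusted p = 2.7e-10). Ooep, which encodes a maternal complex scaffold, had 2167 and 2297 FPKM in knockout, against 210.3 and 239 FPKM in wild type (3.31 ± 0.09 SE, adjusted p = 3.8e-09). Another member of that complex, Tle6, had 7451 and 7997 FPKM in knockout, against 1734 and 1643 FPKM in wild type (2.19 ± 0.05 SE, adjusted p = 1.7e-09). In all 3 genes both knockout libraries were far above both wild-type libraries. Nlrp14 had 5325 and 5383 FPKM in knockout, against 1157 and 1078 FPKM in wild type (2.26 ± 0.06 SE, adjusted p = 4.1e-09). Npm2, the histone chaperone that remodels sperm chromatin, had 2428 and 2396 FPKM in knockout, against 488 and 338 FPKM in wild type (2.57 ± 0.13 SE, adjusted p = 5.0e-07). These 5 genes stayed higher after median scaling, with differences from 1.42 for Tle6 to 2.54 for Ooep.

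The exception in the maternal complex list was Zbed3 (chr13:96095192-96107796, plus strand), at 7354 and 7757 FPKM in knockout, against 14575 and 14384 FPKM in wild type (-0.94 ± 0.04 SE, adjusted p = 1.4e-07; -1.71 after median scaling). Lhx8, a homeobox factor of early oogenesis, had 151 and 173 FPKM in knockout, against 36.1 and 21.1 FPKM in wild type (2.51 ± 0.25 SE, adjusted p = 5.4e-05). Nobox, its partner in the oocyte programme, had 372 and 406 FPKM in knockout, against 104 and 115 FPKM in wild type (1.82 ± 0.12 SE, adjusted p = 3.1e-06). Both regulators of the growth phase were thus higher. Bmp15, one of the TGF-beta family ligands that the oocyte sends to its follicle cells, had 2392 and 2539.8 FPKM in knockout, against 869 and 871 FPKM in wild type (1.501 ± 0.07 SE, adjusted p = 2.2e-07; 0.73 after median scaling). Its companion ligand Gdf9 had 7599.8 and 7600.4 FPKM in knockout, against 5797 and 6006 FPKM in wild type (0.37 ± 0.06 SE, adjusted p = 0.00088), and the direction depended on the scaling: after median scaling the difference was -0.41, adjusted p = 0.00036.

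The zona pellucida genes encode the egg coat. Zp3 had 9657 and 9463 FPKM in knockout, against 3035 and 2992 FPKM in wild type (1.67 ± 0.04 SE, adjusted p = 9.3e-10). Zp2 had 4327 and 4609 FPKM in knockout, against 1719 and 1664 FPKM in wild type (1.40 ± 0.07 SE, adjusted p = 3.8e-07). Both were higher under both scalings, while Zp1, at 3297 and 3195 FPKM in knockout, against 1987 and 1876 FPKM in wild type (0.75 ± 0.07 SE, adjusted p = 4.8e-05), differed by -0.02 (adjusted p = 0.88) after median scaling. Astl, the ovastacin protease that cleaves ZP2 after fertilisation, had 2209.6 and 2218 FPKM in knockout, against 2250.1 and 2299.7 FPKM in wild type (-0.04 ± 0.07 SE, adjusted p = 0.73), and was lower after median scaling (-0.81, adjusted p = 2.9e-05).

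The 26 listed maternal transcripts known to be translated on maturation had a median difference near 0 as deposited, and most of them were lower after median scaling. As deposited 9 were higher (34.6%, against 25.4% of all genes) and 2 lower (7.69%, against 3.20%), with a median difference of 0.10 against 0.81 over all genes. After median scaling 3 were higher and 18 lower (69.2%, against 10.5% of all genes), with a median of -0.68 against 0.29. Ccnb1 (chr13:101548694-101556441, minus strand), the cyclin that activates Cdk1, had 3025 and 2934 FPKM in knockout, against 2709 and 2911 FPKM in wild type (0.09 ± 0.09 SE, adjusted p = 0.52). Mos, the kinase that starts the MAP kinase pathway and holds the MII arrest, had 1977 and 2205 FPKM in knockout, against 2238 and 2088 FPKM in wild type (-0.05 ± 0.08 SE, adjusted p = 0.68). Bub1b, a spindle checkpoint kinase, had 1565 and 1563 FPKM in knockout, against 1729 and 1804 FPKM in wild type (-0.18 ± 0.09 SE, adjusted p = 0.17). None of these 3 passed the test as deposited, where the median gene was higher in knockout, and all 3 were lower after median scaling (-0.69, -0.82 and -0.95). Tpx2, a spindle assembly factor, was alike, with 185 and 191 FPKM in knockout, against 224 and 203 FPKM in wild type (-0.18 ± 0.19 SE, adjusted p = 0.52; -0.95 after scaling).

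The 2 lower members of this list were Rfpl4 and Fbxo43. Rfpl4, an oocyte ubiquitin ligase component, had 3060.0 and 3064 FPKM in knockout, against 5089 and 5383 FPKM in wild type (-0.77 ± 0.12 SE, adjusted p = 0.00075). Fbxo43 encodes Emi2, the inhibitor of the anaphase-promoting complex at MII, and had 122 and 93.8 FPKM in knockout, against 199 and 208 FPKM in wild type (-0.92 ± 0.27 SE, adjusted p = 0.030). The Fbxo43 call was lost without any 1 of the 4 MII libraries, with adjusted p between 0.053 and 0.17, and in the fit of these libraries alone. The higher members included Eif4e, the cap-binding protein, with 146 and 174 FPKM in knockout, against 45.9 and 49.2 FPKM in wild type (1.72 ± 0.19 SE, adjusted p = 0.00011; 0.96 after scaling), and Slbp, the histone stem-loop binding protein, with 6953 and 6765 FPKM in knockout, against 3548 and 3915 FPKM in wild type (0.88 ± 0.06 SE, adjusted p = 4.0e-06; 0.11, adjusted p = 0.18 after scaling). Plat, tissue plasminogen activator, had 5336 and 5288 FPKM in knockout, against 4090.1 and 4504 FPKM in wild type (0.31 ± 0.07 SE, adjusted p = 0.0097). Its direction reversed after median scaling (-0.46, adjusted p = 0.00078), and its call as deposited was lost in the fit of the 4 MII libraries alone (adjusted p = 0.090) and without wild-type library 1, knockout library 1 or knockout library 2 (adjusted p between 0.051 and 0.067).

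**Figure D3:**
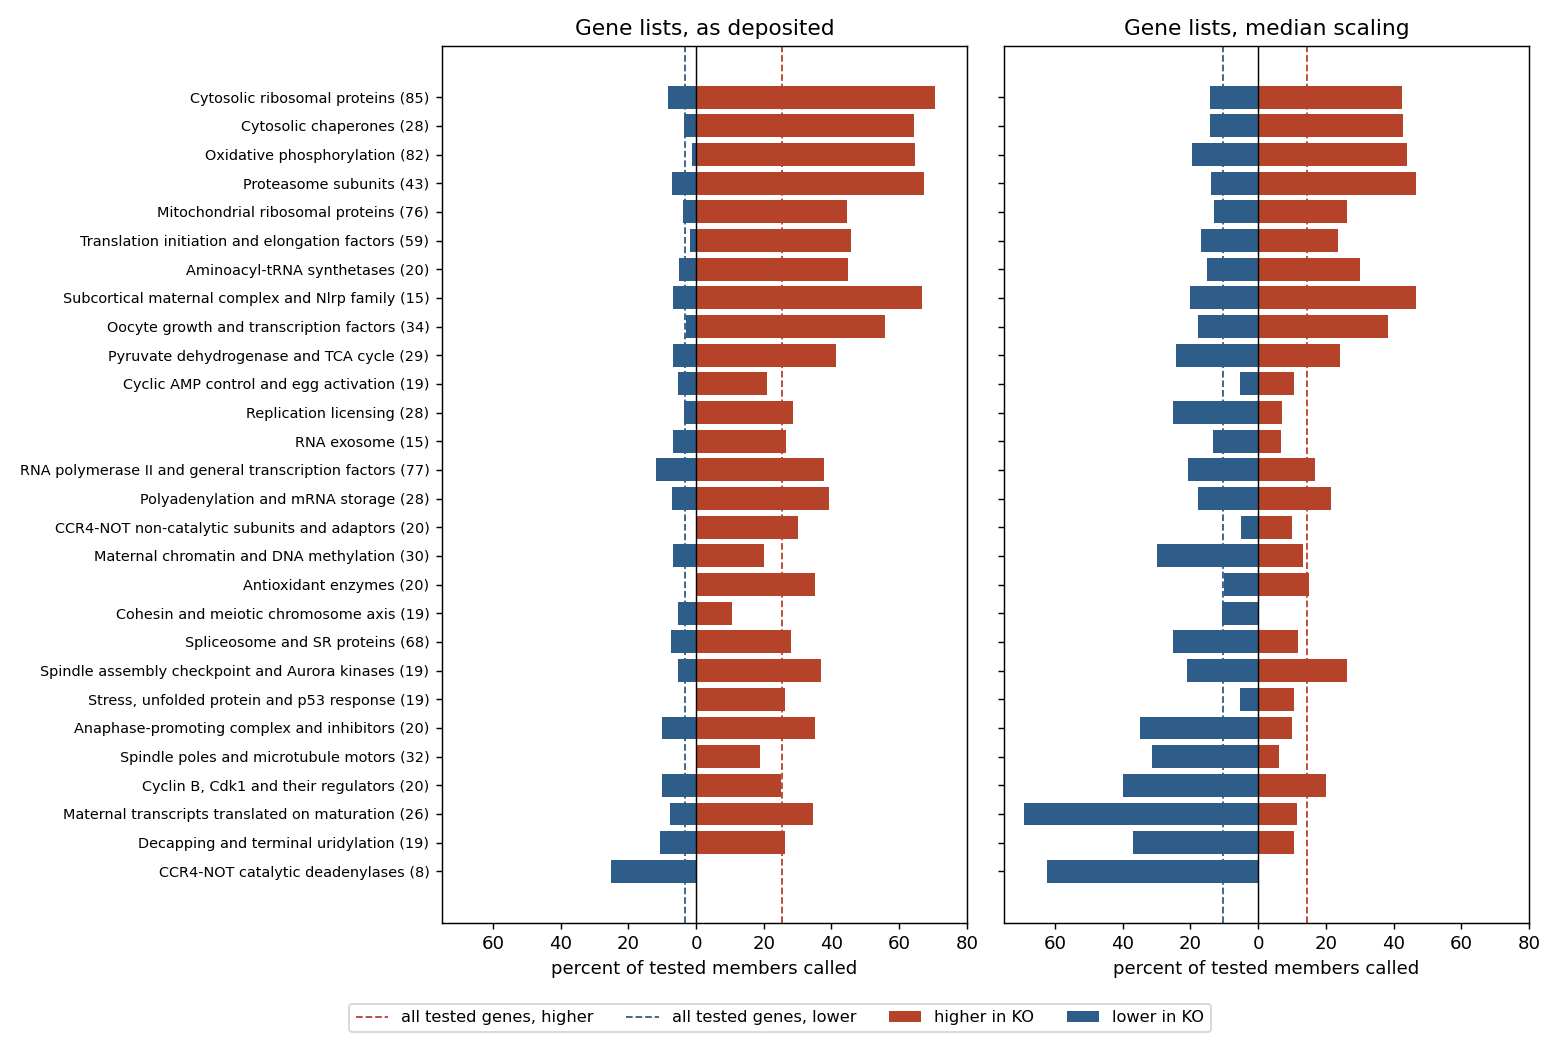
Percent of tested members called higher (red, to the right) or lower (blue, to the left) in knockout MII oocytes for 28 gene lists, with the number tested in brackets, as deposited (left) and after median scaling (right), sorted by the median difference as deposited; dashed lines are the shares over all 11667 genes. The cytosolic ribosomal, proteasome, chaperone, oxidative phosphorylation and maternal complex lists reach past 60% higher as deposited, and the maturation list and the catalytic deadenylases reach past 60% lower after scaling.

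The sequences below are 24-base windows of the 3' UTR, read 5' to 3' on the transcript strand from the GENCODE M1 transcripts (mm9); they are shown because they hold the element in messages that were level or lower in knockout after median scaling, and the poly(A) signal in messages that were higher and have no such element. The last CPE ends 137, 61, 325, 21 and 135 bases before the annotated end in Ccnb1, Btg4, Cnot7, Bub1b and Rfpl4. The genes were picked on these traits, and 42.4% of all genes called higher after median scaling held a CPE. Capitals mark the last CPE of the 3' UTR in the first 5 and the poly(A) signal in the last 3. The Bub1b window also holds a poly(A) signal, in small letters.
Ccnb1: atttgctgTTTTAATttatacatc
Btg4: taaatccctTTTTATgtcttttta
Cnot7: tgcaatctaTTTTATatatattga
Bub1b: cactgtgtaTTTTATaataaaata
Rfpl4: tgctttcctTTTTATttgctataa
Padi6: catagagccAATAAAgcatggtat
Npm2: tagggccacAATAAAatttgcatg
Tle6: gttgcgtgtAATAAAacaattgaa

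These windows lie at chr13:101548733-101548756 for Ccnb1 (minus strand), chr9:50927905-50927928 for Btg4 (plus), chr8:41578210-41578233 for Cnot7 (minus), chr2:118467292-118467315 for Bub1b (plus) and chr7:5061515-5061538 for Rfpl4 (minus). Those of Padi6, Npm2 and Tle6 lie at chr4:140283279-140283302, chr14:71047114-71047137 and chr10:81053655-81053678, all on the minus strand. The 3' UTR of Ccnb1, 1028 bases long, held 4 CPEs, that of Cnot7 held 9 in 1447 bases, and that of Bub1b held 2 in 272 bases. Padi6, Npm2 and Tle6 have 3' UTRs of 221, 203 and 130 bases with 0 CPEs.

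A CPE was counted as TTTTAT or TTTTAAT on the transcript strand, and an AU-rich element as TATTTAT, which can overlap TTTTAT. Of 11667 genes 10733 had an annotated 3' UTR, and 56.7% of these held a CPE and 24.8% the AU-rich motif. A CPE was in 46.6% of the genes called higher in knockout, in 65.0% of those called lower and in 60.0% of those not called. After median scaling these shares were 42.4%, 68.1% and 57.9%. The AU-rich motif was in 19.2% of the higher, 25.7% of the lower and 26.8% of the uncalled genes. Genes called higher also had shorter 3' UTRs, with a median of 612 bases against 705.5 in lower and 906 in uncalled genes, and a long 3' UTR holds more motifs by length alone, so the genes were compared within bins of length.

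Within each bin the median knockout minus wild-type difference was smaller for genes with a CPE. In 3' UTRs of up to 250 bases it was 0.54 for 354 genes with a CPE and 1.14 for 1706 genes without, and in those over 2000 bases it was 0.63 for 1985 genes with and 1.09 for 155 genes without. In the shortest bin 23.4% of genes with a CPE were called higher and 10.2% lower, against 36.3% and 2.46% of genes without. The lower share as deposited went the other way in the longer bins. It was 2.94% with and 3.41% without a CPE from 1000 to 2000 bases, and 2.17% and 3.87% over 2000 bases. The higher shares over 2000 bases were 19.0% with and 23.2% without. After median scaling the shortest bin gave -0.08 with and 0.70 without. The AU-rich motif gave gaps in the same direction, from 0.45 for 86 genes with it and 1.06 for 1974 without in the shortest bin to 0.60 and 0.76 in the longest. These are descriptions of the genes tested, with no test, and the bins also differ in abundance: in the shortest bin genes with a CPE had a median of 41.1 FPKM at GV and genes without had 29.9.

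**Figure D4:**
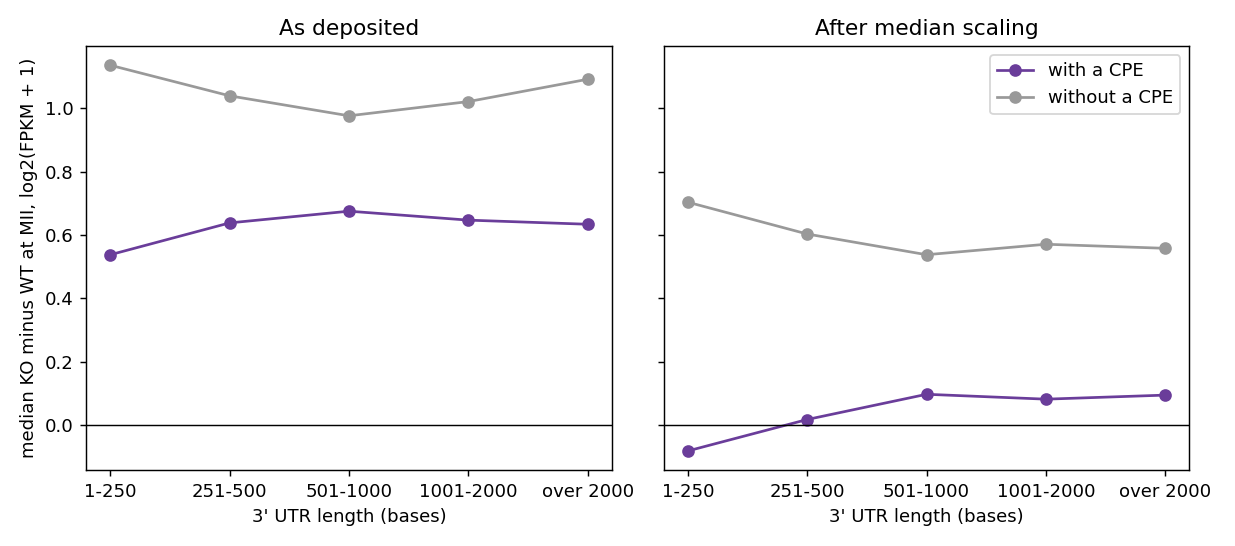
Median knockout minus wild-type log2(FPKM + 1) difference at MII for genes with (purple) and without (grey) a CPE in 5 bins of 3' UTR length, as deposited (left) and after median scaling (right). The purple points lie below the grey ones in all 5 bins, at 0.54 against 1.14 in the shortest and 0.63 against 1.09 in the longest as deposited.

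The share with a CPE also differed between the gene lists, and did not follow their calls in each case. It was 21 of 24 genes with a 3' UTR in the maturation list and 7 of 8 deadenylases, and 18 of 20 non-catalytic subunits and adaptors, a list with 6 higher and 0 lower genes as deposited (2 and 1 after median scaling). In the list of oocyte growth and oocyte-restricted genes, where 19 of 34 were higher, it was 21 of 33 (63.6%, against 56.7% of all genes with a 3' UTR). It was 0 of 4 zona genes, 6 of 14 genes of the maternal complex and Nlrp list, 18 of 82 ribosomal protein genes and 13 of 82 oxidative phosphorylation genes.

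As deposited, cyclin B, Cdk1 and their regulators were called higher about as often as all genes. Of 20 tested 5 were higher (25%, against 25.4% of all genes; Cdk1, Cdk2, Cdc25b, Mastl and Ensa) and 2 lower (4 and 8 after median scaling), with a median difference of 0.16. The higher calls without knockout library 1 and library 2 were 2 and 3. Cdk1 itself had 46.2 and 34.2 FPKM in knockout, against 2.16 and 3.67 FPKM in wild type (3.41 ± 0.29 SE, adjusted p = 1.6e-05). The lower genes were both Cks subunits, small partners of Cdk1: Cks1b had 407 and 564 FPKM in knockout, against 1575 and 1568 FPKM in wild type (-1.71 ± 0.19 SE, adjusted p = 9.2e-05). Cks2 had 1133 and 1293 FPKM in knockout, against 1527 and 1609 FPKM in wild type (-0.37 ± 0.08 SE, adjusted p = 0.0061), a call lost without knockout library 1 (adjusted p = 0.058) and in the fit of the 4 MII libraries alone (adjusted p = 0.10).

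For 20 tested genes of the anaphase-promoting complex and its inhibitors 7 were higher (35%, against 25.4% of all genes) and 2 lower (2 and 7 after median scaling). Without knockout library 1 and library 2 the higher calls were 4 and 5 and the lower calls 0 and 0, and the fit of the 4 MII libraries alone gave 1 higher and 0 lower. Anapc2, its cullin subunit, had 29.0 and 44.4 FPKM in knockout, against 1.52 and 4.77 FPKM in wild type (3.27 ± 0.41 SE, adjusted p = 0.00025), with adjusted p = 0.069 in the fit of the 4 MII libraries alone. Pttg1, or securin, one of the most abundant messages, had 28479.6 and 28735 FPKM in knockout, against 22801 and 23423 FPKM in wild type (0.31 ± 0.04 SE, adjusted p = 0.00014), and reversed to -0.46 (adjusted p = 1.7e-05) after median scaling. The 2 lower genes were Fbxo43 and Anapc13, a small subunit with 125 and 165 FPKM in knockout, against 339 and 241 FPKM in wild type (-0.99 ± 0.30 SE, adjusted p = 0.031), whose call was lost without wild-type library 1, knockout library 1 or knockout library 2 (adjusted p between 0.057 and 0.18) and in the fit of the 4 MII libraries alone (adjusted p = 0.11).

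In the list of 19 spindle checkpoint and Aurora genes 7 were higher (36.8%, against 25.4% of all genes) and 1 lower (5 and 4 after median scaling). Among 32 spindle pole and motor genes 6 were higher (18.8%) and 0 lower, or 1 lower at an unadjusted p under 0.05. After median scaling 2 of the 32 were higher and 10 lower (31.2%, against 10.5% of all genes). Zw10, which recruits dynein to kinetochores, had 93.7 and 87.4 FPKM in knockout, against 2.39 and 0.990 FPKM in wild type (5.14 ± 0.33 SE, adjusted p = 2.1e-06). Tacc3, a microtubule-binding protein of the spindle poles, had 585 and 521 FPKM in knockout, against 31.1 and 32.3 FPKM in wild type (4.08 ± 0.11 SE, adjusted p = 4.1e-09). Aurkc, the Aurora kinase of germ cells, had 1557 and 1448 FPKM in knockout, against 405 and 342 FPKM in wild type (2.01 ± 0.19 SE, adjusted p = 3.7e-05). Knockout exceeded wild type in each of these under both scalings. Cdca8, or borealin, a partner of Aurora B and C, was the lower member with 511 and 602 FPKM in knockout, against 919 and 703 FPKM in wild type (-0.53 ± 0.15 SE, adjusted p = 0.023), a call lost without wild-type library 1 (adjusted p = 0.13), without knockout library 1 (adjusted p = 0.15) and in the fit of the 4 MII libraries alone (adjusted p = 0.17). Without knockout library 1 and library 2 the spindle pole list had 3 and 3 higher calls.

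Of 28 replication licensing genes 8 were higher (28.6%, against 25.4% of all genes) and 1 lower, with 5 and 5 higher without knockout library 1 and library 2. After median scaling 2 of the 28 were higher and 7 lower (25%, against 10.5% of all genes). Mcm5, a subunit of the replicative helicase, had 33.4 and 44.2 FPKM in knockout, against 0.560 and 0.540 FPKM in wild type (4.67 ± 0.30 SE, adjusted p = 2.2e-06). Cdc45, which joins that helicase, was the lower one, with 56.9 and 53.7 FPKM in knockout, against 118 and 137 FPKM in wild type (-1.18 ± 0.28 SE, adjusted p = 0.010; adjusted p = 0.059 without knockout library 2). These partners in 1 machine differed in opposite directions. Among 19 cyclic AMP and egg activation genes 4 were higher (21.1%, against 25.4% of all genes) and 1, Rgs2, was lower (2 and 1 after median scaling). The 4 higher ones were Prkar1a, Cd9, Folr4 and Trpm7. Cd9, the tetraspanin of the egg membrane needed for sperm fusion, had 2029 and 1972 FPKM in knockout, against 313 and 227 FPKM in wild type (2.90 ± 0.14 SE, adjusted p = 3.6e-07). Rgs2, which damps G protein signalling, had 244 and 267 FPKM in knockout, against 368 and 382 FPKM in wild type (-0.55 ± 0.17 SE, adjusted p = 0.035), and its call was lost when any of 8 single libraries was left out, among them each of the 4 MII libraries (adjusted p from 0.066 to 0.16).

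Messages of the ribosome were mostly higher in knockout as deposited. Of 85 tested cytosolic ribosomal protein genes 60 were higher (70.6%, against 25.4% of all genes) and 7 lower, with a median of 1.47. The higher share of all genes grew with abundance at GV, to 65.1% at 500 FPKM or more. Neither this list nor the others were matched to all genes by abundance. After median scaling 36 were higher and 12 lower, with a median of 0.70. The fit of the 4 MII libraries alone called 30 of them higher as deposited. Rpl5 had 1111 and 1242 FPKM in knockout, against 81.5 and 132 FPKM in wild type (3.49 ± 0.18 SE, adjusted p = 4.7e-07). Rps27a, a ubiquitin fusion, had 241 and 246 FPKM in knockout, against 19.9 and 27.6 FPKM in wild type (3.32 ± 0.19 SE, adjusted p = 8.5e-07). Opposite to these, Rpl41 had 3035 and 3049 FPKM in knockout, against 5554 and 5753 FPKM in wild type (-0.89 ± 0.08 SE, adjusted p = 2.1e-05), and the Rps27 paralogue Rps27l had 747 and 673 FPKM in knockout, against 1472 and 1734 FPKM in wild type (-1.17 ± 0.15 SE, adjusted p = 0.00024). The near-identical copies of these genes make single values uncertain. For mitochondrial ribosomal proteins the counts were 34 higher (44.7%, against 25.4% of all genes) and 3 lower (Mrpl53, Mrps16 and Mrps36) of 76 (20 and 10 after median scaling). There were 24 and 24 higher without knockout library 1 and library 2 and 14 higher in the fit of the 4 MII libraries alone. Mrps22 had 112 and 98.1 FPKM in knockout, against 3.71 and 0.720 FPKM in wild type (5.22 ± 0.40 SE, adjusted p = 7.8e-06).

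The proteasome list had 29 of 43 genes higher (67.4%, against 25.4% of all genes) and 3 lower, Psmb3, Psmd3 and Psmd9 (20 and 6 after median scaling), around a median of 1.24. In the fit of the 4 MII libraries alone 16 were higher, and without knockout library 1 or library 2 there was 1 lower. Psmc1, an ATPase of its base, had 99.9 and 93.8 FPKM in knockout, against 4.35 and 3.35 FPKM in wild type (4.34 ± 0.25 SE, adjusted p = 1.0e-06). Psmb7, a catalytic subunit, had 327 and 329.9 FPKM in knockout, against 34.2 and 22.6 FPKM in wild type (3.51 ± 0.21 SE, adjusted p = 1.1e-06). A further core subunit, Psmb3, was lower instead, with 435 and 526 FPKM in knockout, against 1038 and 1158 FPKM in wild type (-1.20 ± 0.19 SE, adjusted p = 0.0011). Of 28 cytosolic chaperone genes 18 were higher (64.3%, against 25.4% of all genes) and 1 lower (12 and 4 after median scaling). The co-chaperone Dnaja1 had 302 and 269 FPKM in knockout, against 32.0 and 37.3 FPKM in wild type (3.01 ± 0.16 SE, adjusted p = 6.3e-07). The lower one was Hsp90ab1, with 438 and 386 FPKM in knockout, against 668 and 599.9 FPKM in wild type (-0.62 ± 0.13 SE, adjusted p = 0.0051; adjusted p = 0.059 in the fit of the 4 MII libraries alone, in which 6 chaperone genes were higher).

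Respiratory genes were also mostly higher as deposited. Of 82 oxidative phosphorylation genes 53 were higher (64.6%, against 25.4% of all genes) and 1 lower, around a median of 1.35. After median scaling 36 were higher and 16 lower. The fit of the 4 MII libraries alone called 27 higher as deposited. The lower gene was Cox8a, a subunit of cytochrome oxidase, with 545 and 685 FPKM in knockout, against 1255 and 1483 FPKM in wild type (-1.16 ± 0.14 SE, adjusted p = 0.00019). In the list of 29 pyruvate dehydrogenase and TCA cycle genes 12 were higher (41.4%) and 2 lower (7 and 7 after median scaling), with 5 higher in the fit of the 4 MII libraries alone. Sdhb, the iron-sulphur subunit of succinate dehydrogenase, had 202 and 212 FPKM in knockout, against 20.0 and 29.8 FPKM in wild type (3.03 ± 0.23 SE, adjusted p = 6.4e-06). Idh3g, of isocitrate dehydrogenase, had 39.7 and 39.1 FPKM in knockout and was listed at 0 in wild type (adjusted p = 1.8e-06). Lower were Brp44l, a mitochondrial pyruvate carrier subunit, with 91.8 and 72.3 FPKM in knockout, against 178 and 218 FPKM in wild type (-1.26 ± 0.26 SE, adjusted p = 0.0049), and Ogdh, of the oxoglutarate dehydrogenase complex, with 40.4 and 26.9 FPKM in knockout, against 87.0 and 87.0 FPKM in wild type (-1.37 ± 0.27 SE, adjusted p = 0.0039; adjusted p = 0.066 in the fit of the 4 MII libraries alone). Among 20 antioxidant enzymes 7 were higher (35%) and 0 lower, the latter as at an unadjusted p under 0.05 (3 and 2 after median scaling), with 2 higher in the fit of the 4 MII libraries alone. Sod1, the cytosolic superoxide dismutase, had 1191 and 1225 FPKM in knockout, against 320.2 and 275 FPKM in wild type (2.02 ± 0.12 SE, adjusted p = 1.3e-06).

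Translation factors and tRNA synthetases were called higher in larger shares than all genes as deposited, which was not tested as a difference. Of 59 initiation and elongation factor genes 27 were higher (45.8%, against 25.4% of all genes) and 1 lower (14 and 10 after median scaling), with 20 and 18 higher without knockout library 1 and library 2 and 10 in the fit of the 4 MII libraries alone. Eif4h, a helper of the cap-complex helicase, had 139.8 and 120.4 FPKM in knockout, against 6.44 and 10.4 FPKM in wild type (3.83 ± 0.24 SE, adjusted p = 1.8e-06). Within the eIF3 complex Eif3g had 198 and 192 FPKM in knockout, against 20.6 and 17.2 FPKM in wild type (3.30 ± 0.17 SE, adjusted p = 4.9e-07), whereas Eif3i was the lower gene, with 282 and 308 FPKM in knockout, against 589 and 795 FPKM in wild type (-1.21 ± 0.24 SE, adjusted p = 0.0040). Of 20 tRNA synthetases 9 were higher (45%) and 1 lower (6 and 3 after median scaling), with 3 higher in the fit of the 4 MII libraries alone. Rars, for arginine, had 73.1 and 68.0 FPKM in knockout, against 7.67 and 14.8 FPKM in wild type (2.61 ± 0.32 SE, adjusted p = 0.00020). The lower one, Hars, for histidine, had 11.7 and 9.69 FPKM in knockout, against 77.0 and 54.9 FPKM in wild type (-2.50 ± 0.41 SE, adjusted p = 0.0013).

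Genes of splicing and transcription were called in both directions. Of 68 spliceosome and SR protein genes 19 were higher and 5 lower, Sf3b5, Snrpd1, Snrpe, Snrpg and Srsf4 (8 and 17 after median scaling), against 25.4% and 3.20% of all genes. The higher calls without knockout library 1 and library 2 were 10 and 13 and the lower calls 3 and 4. The fit of the 4 MII libraries alone gave 6 higher and 3 lower. Snrpe, a core Sm protein of the spliceosome, had 1092 and 1082 FPKM in knockout, against 1878 and 1823 FPKM in wild type (-0.77 ± 0.09 SE, adjusted p = 0.00015). Its partner Snrpg had 1299 and 1323 FPKM in knockout, against 2447 and 2417 FPKM in wild type (-0.89 ± 0.10 SE, adjusted p = 9.8e-05). Of 77 genes of RNA polymerase II and the general factors 29 were higher (37.7%) and 9 lower (11.7%), or 13 and 16 after median scaling. The lower calls without knockout library 1 and library 2 were 6 and 4, and the fit of the 4 MII libraries alone gave 12 higher and 4 lower. Polr2b, the second largest polymerase subunit, had 58.4 and 63.0 FPKM in knockout, against 5.76 and 0 FPKM in wild type (4.57 ± 0.68 SE, adjusted p = 0.00068), with adjusted p = 0.10 in the fit of the 4 MII libraries alone. Med30, of the Mediator complex, was lower, with 553 and 566 FPKM in knockout, against 1128 and 1369 FPKM in wild type (-1.15 ± 0.14 SE, adjusted p = 0.00023).

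Of 30 maternal chromatin and DNA methylation genes 6 were higher (20%, against 25.4% of all genes) and 2 lower (4 and 9 after median scaling). Dnmt3l, the cofactor that sets maternal imprints during oocyte growth, had 220.5 and 261 FPKM in knockout, against 48.8 and 51.7 FPKM in wild type (2.23 ± 0.23 SE, adjusted p = 6.1e-05). Zfp57, which protects imprints in the embryo, had 1578 and 1518 FPKM in knockout, against 464 and 488 FPKM in wild type (1.70 ± 0.08 SE, adjusted p = 1.7e-07). Dnmt1, the maintenance methyltransferase, had 1607 and 1726 FPKM in knockout, against 778 and 822 FPKM in wild type (1.06 ± 0.09 SE, adjusted p = 1.6e-05). All 3 methylation genes were higher under both scalings. The lower genes were Ehmt2, given above, and Ezh2, the Polycomb methyltransferase, with 256 and 141 FPKM in knockout, against 465 and 423 FPKM in wild type (-1.22 ± 0.34 SE, adjusted p = 0.022). The Ezh2 call was lost without either wild-type library or without knockout library 2 (adjusted p between 0.052 and 0.17) and in the fit of the 4 MII libraries alone (adjusted p = 0.12).

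Stress genes were called higher about as often as all genes. Of 19 stress, unfolded protein and p53 response genes 5 were higher (26.3%; Hsph1, Ddit3, Atf4, Hspa5 and Chac1) and 0 lower, or 1 lower at an unadjusted p under 0.05, beside 25.4% of all genes higher (2 and 1 after median scaling). Atf4, the main factor of the integrated stress response, had 96.5 and 114 FPKM in knockout, against 22.5 and 25.6 FPKM in wild type (2.08 ± 0.22 SE, adjusted p = 6.9e-05). Among 11 early embryonic genes 2 were higher (18.2%, beside 25.4% of all genes) and 0 lower as deposited, against 6 and 1 at an unadjusted p under 0.05. After median scaling 2 were higher and 3 lower. The higher ones were Arg2, an arginase, with 148 and 148 FPKM in knockout, against 23.6 and 15.1 FPKM in wild type (2.90 ± 0.21 SE, adjusted p = 4.9e-06), and Klf4, a pluripotency factor, with 6.67 and 7.34 FPKM in knockout and 0 in wild type (adjusted p = 0.033). The Klf4 call was lost without any 1 of the 4 MII libraries (adjusted p from 0.091 to 0.12). Of 19 cohesin and chromosome axis genes 2, Smc1b and Esco2, were higher (0 without knockout library 1 or library 2) and 1, Hormad1, was lower. The higher share of this list as deposited was 10.5%, beside 25.4% of all genes. After median scaling 2 were lower and 0 higher, against 1 higher at an unadjusted p under 0.05.

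Markers of follicle cells were called in both directions. Among the cumulus and granulosa markers 11.8% were higher and 11.8% lower as deposited, against 25.4% and 3.20% of all genes. Of 17 tested cumulus and granulosa markers 2 were higher (1 without knockout library 1 or library 2) and 2 lower, and after median scaling 2 were higher and 3 lower. Ptx3, a protein of the cumulus matrix, had 0.350 and 0 FPKM in knockout, against 17.1 and 15.3 FPKM in wild type (adjusted p = 0.00086). Gja1, the connexin that joins cumulus cells, was listed at 0 in knockout and had 5.07 and 8.05 FPKM in wild type (adjusted p = 0.0059). In the other direction, Inha, an inhibin subunit, had 4.46 and 12.7 FPKM in knockout and 0 in wild type (adjusted p = 0.00080; adjusted p = 0.067 in the fit of the 4 MII libraries alone). Inhba was at 4.02 and 3.20 FPKM in knockout and 0 in wild type (adjusted p = 0.033), a call lost without any 1 of the 4 MII libraries (adjusted p from 0.083 to 0.13). The most abundant marker, Serpine2, had 821 and 767 FPKM in knockout, against 1009 and 969 FPKM in wild type (adjusted p = 0.054). The next most abundant, Cyp19a1, lay the other way, with 63.85 and 98.35 FPKM in knockout, against 47.61 and 32.82 FPKM in wild type (adjusted p = 0.090). Neither was called as deposited. Of 8 tested markers of theca, stroma, endothelium and blood 1 was higher, Tie1, with 4.91 and 9.49 FPKM in knockout and 0 in wild type (adjusted p = 0.0057; adjusted p = 0.052 without knockout library 2).

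Whether a difference was particular to MII was asked with the difference between 2 differences, that of knockout and wild type at MII minus that at an earlier stage. Against MI, 328 genes (2.81%) had a higher difference at MII and 433 (3.71%) a lower one as deposited; against GV, the counts were 1868 (16.0%) and 205 (1.76%). After median scaling they were 501 and 270 against MI, and 874 and 628 against GV. The median of the difference over all genes was -0.25 against MI and 0.89 against GV. The counts against MI moved with single libraries of 3 groups: they lay between 147 and 184 higher without either knockout MI or MII library, and were 650 and 619 without wild-type MII library 1 and library 2. The lower ones were 177 and 169 without knockout MI library 1 and library 2, and 227 and 219 without knockout MII library 1 and library 2. Against GV they were 1198 and 1162 higher and 128 and 121 lower without wild-type GV library 1 and library 2, and 125 lower without knockout MII library 2.

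In 3 messages of the growing oocyte the difference was larger at MII than at MI. Padi6 had 5814 and 5906 FPKM in knockout, against 7538 and 7547 FPKM in wild type at GV, and 19684 and 20275 FPKM in knockout, against 10193 and 10403 FPKM in wild type at MI, so the MII difference exceeded that at GV by 2.85 (adjusted p = 1.2e-09) and that at MI by 1.53 (adjusted p = 5.4e-07). Ooep had 3019.8 and 3072 FPKM in knockout, against 2093 and 1858 FPKM in wild type at MI, and its MII difference exceeded that at MI by 2.68 (adjusted p = 1.2e-06). The level of Npm2 at MI was 3413 and 3635 FPKM in knockout, against 3207 and 3302 FPKM in wild type, close to equal, and its MII difference exceeded that at MI by 2.45 (adjusted p = 5.0e-05). In these 3 genes the wild-type libraries were lower at MII than at MI or GV. The knockout libraries at MII lay above those at GV but below those at MI, so FPKM fell from MI to MII in both genotypes. These differences between stages were not tested.

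Zbed3 went the other way. At MI it had 8746 and 8891 FPKM in knockout, against 8332 and 8175 FPKM in wild type, and wild-type libraries alone were higher at MII than at MI; its difference of differences was -1.03 (adjusted p = 4.1e-06). Dcp1a also departed from MI, where it had 217 and 281 FPKM in knockout, against 128 and 165 FPKM in wild type, with a difference of differences of -2.17 (adjusted p = 0.00075). Mos differed by little at MII and MI as deposited, with 2391 and 2413 FPKM in knockout, against 2219 and 2281 FPKM in wild type at MI (-0.14 against MI, adjusted p = 0.53; -0.08 against GV, adjusted p = 0.66). After median scaling its difference of differences was 0.11 against MI (adjusted p = 0.67) and -0.95 against GV (adjusted p = 0.00060). For Ccnb1 the knockout libraries were already high at MI, with 3218 and 3295 FPKM in knockout, against 2096 and 2122 FPKM in wild type. Its difference at MII was -0.54 relative to MI (adjusted p = 0.030), a call lost after median scaling (adjusted p = 0.22) and when either wild-type GV, wild-type MI, knockout MI or knockout MII library, or wild-type MII library 2, was left out, with adjusted p between 0.051 and 0.12.

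**Figure D5:**
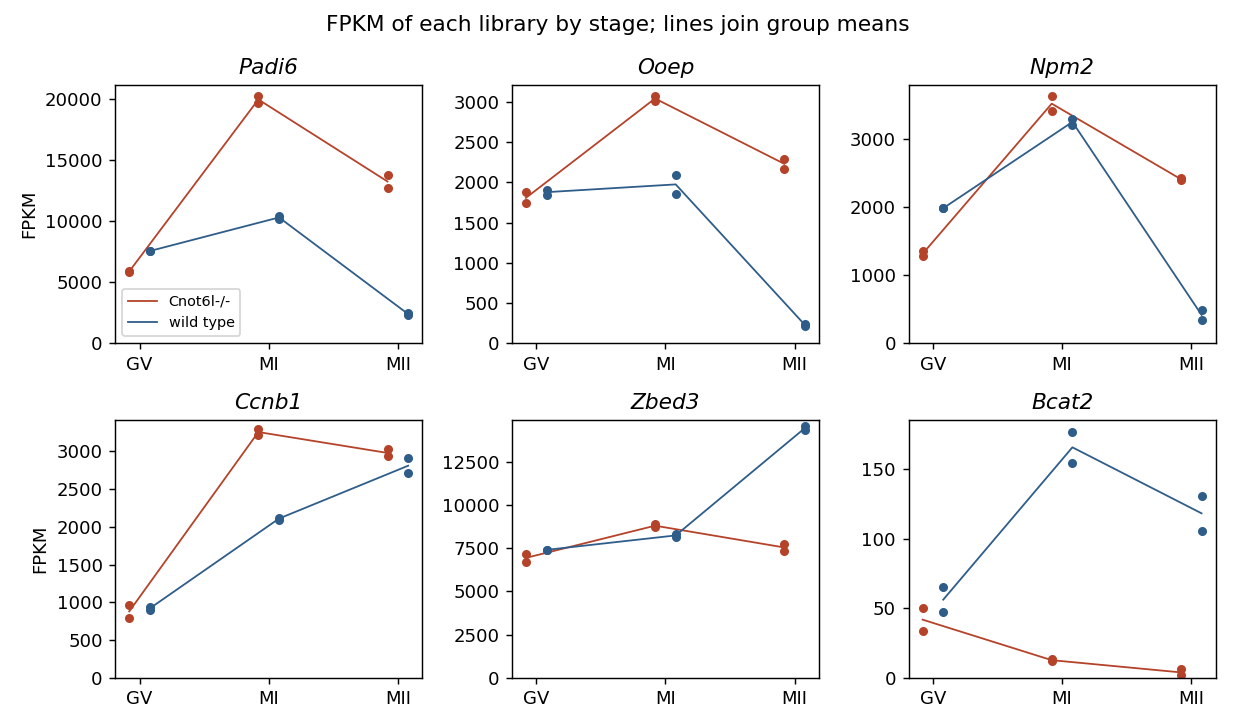
FPKM of each library at GV, MI and MII for 6 genes, with Cnot6l-/- in red left of wild type in blue and lines through the group means; the axes start at 0. At MII Padi6, Ooep and Npm2 are high in knockout and low in wild type, Ccnb1 is level, and Zbed3 and Bcat2 are low in knockout and high in wild type.

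Several of the largest differences against MI were in genes listed at 0 in a group. Rpp38, a subunit of RNase P, had 67.6 and 46.5 FPKM in knockout, against 46.2 and 33.1 FPKM in wild type at MI and 28.8 and 42.3 FPKM in the knockout libraries at MII, where wild type was listed at 0 (adjusted p = 0.00086 for the difference of differences). Ube2d1, a ubiquitin-conjugating enzyme, had 9.38 and 4.80 FPKM in knockout and 0 in wild type at MI, and 1.89 and 2.33 FPKM in knockout, against 20.0 and 10.3 FPKM in wild type at MII (adjusted p = 0.0053), so its direction was opposite at the 2 stages. The call of Ube2d1 at MII was lost in the fit of the 4 MII libraries alone (adjusted p = 0.10). Against GV, Fen1 had a difference of differences of 6.71 (adjusted p = 3.2e-05), with 52.4 and 74.3 FPKM in knockout, against 127 and 139 FPKM in wild type at GV. Bcat2 had 49.9 and 33.6 FPKM in knockout, against 65.1 and 47.1 FPKM in wild type at GV and a difference of -4.37 (adjusted p = 0.0010). Loxl2, a lysyl oxidase, had 43.5 and 42.2 FPKM in knockout, against 14.2 and 16.5 FPKM in wild type at GV. At MII it had 4.43 and 5.40 FPKM in knockout, against 38.6 and 35.9 FPKM in wild type, so both knockout libraries were above wild type at GV and below it at MII (-4.13, adjusted p = 0.00039).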

How the data were processed

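Polysome-bound RNA was purified on columns and sequenced as Tn5-based libraries of pre-amplified cDNA, per the labels' protocols. The authors deposited 1 table of FPKM per library; the submitters' processing notes name Cufflinks 2.2.1, TopHat2 2.0.11, CASAVA 1.8 and Bowtie2 2.1.0, and the mm9 build. The deposited tables hold neither read counts nor depth, so the precision rests on 2 libraries per group.

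Genes with a mean of at least 1 FPKM over the 12 libraries were tested on log2(FPKM + 1) with limma 3.58.1 in R 4.3.3, with an abundance trend and 6 group means; calls had a 2-sided Benjamini-Hochberg adjusted p under 0.05. A fold change on this scale understates that of low genes, and none is given for a group listed at 0. Contrasts were knockout minus wild type at MII and its difference from that at MI or GV, as deposited and after median scaling. Alternatives were a pseudocount of 0.1, no filter, a minimum of 5 FPKM, TPM, quantile normalization, the 4 MII libraries alone, a replicate block and each library left out. The fit was tested on simulated data.

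Named genes were the 15 with the largest call in each direction, the 8 largest lower calls after scaling, up to 4 called members per list, the 8 most abundant at 0 in the other genotype, the 6 largest in each direction between stages, and 11 fixed genes; a part of them is given, and other members named, such as those of counts of up to 5, were chosen after their values were seen. The members and the 35 lists were chosen with earlier results of these data known. The 3' UTRs came from GENCODE M1 (NCBIM37, the mm9 assembly), with 86.5% of the 23235 symbols matched. Mitochondrially encoded genes had 0 entries to test. The gene list of the Mos and MAP kinase pathway is not reported here.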

Additional observations from a re-analysis of the deposited data

Results flagged for a closer look

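The results below were singled out because the knockout minus wild-type difference at MII differed from that at an earlier stage in a limma test of the difference itself, with 2 libraries per group. They were picked from genes already named, and the test shares the MII libraries with the comparison at MII.

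Against MI, 3 messages of the growing oocyte had the larger difference at MII: 1.53 for Padi6, 2.68 for Ooep and 2.45 for Npm2, on the log2(FPKM + 1) scale. In the list of oocyte growth and oocyte-restricted genes 16 of 34 had a higher difference at MII and 4 a lower one. In the maternal complex and Nlrp list the counts were 5 and 2 of 15, and in the zona list 2 and 2 of 4. Over all genes the shares were 2.81% and 3.71%. The difference at MII minus that at MI was below 0 for Zbed3 (-1.03), itself on the maternal complex list, Dcp1a (-2.17) and Ccnb1 (-0.54). Of these, Ccnb1 was not called after median scaling (adjusted p = 0.22). In 6 genes a group was listed at 0 at MI or MII, so only the adjusted p is given: 0.000157 for Mrpl55, 0.000861 for Rpp38 and 0.00165 for Spa17, each listed at 0 in wild type at MII, and 0.00377 for Ehmt2, 0.00534 for Ube2d1 and 0.00684 for Slc25a28, each listed at 0 in wild type at MI. Mrpl55 had 55.7 and 73.6 FPKM in knockout at MII, and 76.2 and 84.0 FPKM in knockout against 45.98 and 44.95 FPKM in wild type at MI.

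Against GV, the difference was larger at MII by 6.71 for Fen1, 4.95 for Rpl5, 2.85 for Padi6, 3.37 for Ooep and 3.16 for Npm2. The difference at MII minus that at GV was -4.37 for Bcat2, -4.14 for Ppp1r16b, -4.13 for Loxl2 and -0.84 for Zbed3. Rpl5 at GV had 729 and 725 FPKM in knockout, against 1925 and 2102 FPKM in wild type. Noa1, at 0 in wild type at MII, gave adjusted p = 8.54e-05, and Nupr1, at 0 in knockout at MII, gave adjusted p = 0.000102. The part of detection in the genes listed at 0 was not tested.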

How the results depend on the processing

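At MII, against 2967 higher and 373 lower genes as deposited, quantile normalization gave 1527 and 888, median scaling 1676 and 1223, TPM 2055 and 748, and the 4 MII libraries alone 1365 and 172 (851 and 614 with median scaling). Leaving out 1 library gave 1884 to 3101 higher and 216 to 380 lower genes, and with median scaling 967 to 1941 and 731 to 1307. The difference from MI (328 higher and 433 lower) became 501 and 270 with median scaling, had 142 lower with quantile normalization, and ran from 147 to 650 and from 169 to 575 with a library left out. The difference from GV (1868 and 205) became 947 and 477 with TPM, 769 and 421 with quantile normalization and 874 and 628 with median scaling, and ran from 1162 to 2272 and from 121 to 207 with a library left out. The cause of these changes was not tested.

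Cnot6l fell short of the threshold with a pseudocount of 0.1 (-1.80, adjusted p = 0.0534), with no filter (-1.75, adjusted p = 0.0688) and with the replicate block (-1.75, adjusted p = 0.0533), and its log2 difference ran from -1.95 to -1.55 with a library left out. With the replicate block there were 2905 higher and 356 lower genes, and the block ended 0 of 122 calls of named genes at MII other than that of Cnot6l. Libraries with the same number share only a number: their deviations correlated by 0.03 between knockout and wild type at MII, and by -0.029 to 0.055 over 15 pairs of groups.

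With median scaling the sign changed for Cnot8 (-0.57), while Btg4 (-0.001), Zp1 (-0.022) and H1foo (-0.062) came near 0 and were not called. With TPM, quantile normalization and median scaling it changed for Ccnb1 (-0.37, -0.53 and -0.69), Gdf9 (-0.086, -0.19 and -0.41), Plat (-0.14, -0.24 and -0.46), Pttg1 (-0.14, -0.14 and -0.46) and the difference of Ccnb1 from that at GV (-0.54, -0.695 and -0.71). Gdf9 and Plat were not called with TPM or quantile normalization, nor Pttg1 with quantile normalization. Of 122 genes named as called at MII, 27 were not called in the 4 MII libraries alone and 21 without 1 of the MII libraries.

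With 2 libraries per group and no read counts, detection at low abundance and counting error cannot be separated, and which scaling is right for a change in total polysome-bound RNA cannot be settled from FPKM.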

Other observations

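Some gene families outside the lists above were counted after the data were seen, so their counts are a description. Of 173 solute carrier genes 46 were higher in knockout MII oocytes and 8 lower, around a median difference of 0.85 on the log2(FPKM + 1) scale against 0.81 over all genes, and after median scaling 22 were higher and 15 lower. Of 238 zinc finger protein genes 44 were higher and 3 lower (Zfp330, Zfp580 and Zfp607), around a median of 0.86, and after median scaling 30 were higher and 13 lower. The higher shares, 26.6% and 18.5%, lie near or below the 25.4% of all genes. Leaving out knockout library 1 and library 2, the higher calls were 28 and 20 and the lower calls 2 and 3 for solute carriers. For zinc finger genes the higher calls were 26 and 23 and the lower calls 0 and 1. The fit of the 4 MII libraries alone called 18 solute carriers higher and 0 lower, and 21 zinc finger genes higher and 1 lower. Of 41 Rab GTPase genes 10 were higher (24.4%), with 5 without knockout library 1 and 8 without library 2, and after median scaling 5 were higher and 9 lower.

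Among 30 histone genes 7 were higher (23.3%) and 1, Hist1h4d, was lower, and after median scaling 3 were higher and 3 lower. There were 5 and 4 higher without knockout library 1 and library 2, and Hist1h4d was not called in either. Hist1h2bc, a histone H2B gene, had 1019 and 1125 FPKM in knockout, against 44.9 and 66.5 FPKM in wild type, a log2 difference of 4.27. H1foo, the linker histone of the oocyte, had 26842 and 28183 FPKM in knockout, against 17124 and 16520 FPKM in wild type, a log2 difference of 0.71 that was -0.06 after median scaling. Histone genes of 1 type are near-identical copies, so single values are uncertain.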
